A study of Mus musculus with 27 samples.

Results

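Collagen genes were followed in mature 3T3-L1 adipocytes, fat cells made in culture from a mouse embryonic preadipocyte line, before and during exposure to rosiglitazone. A gene was included when a probe set of the array was annotated to a single symbol of the form Col, number, a, number, and of several such probe sets of a gene the brightest on average across the 27 arrays was used. This gave 42 collagen genes out of 18781 measured genes. The rule reads symbols and mean brightness, not changes, but collagens were chosen as the subject with earlier results of these data known. Col7a1 and Col9a3 were not among them, because their probe sets also carried the symbol of another gene.

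The cells had been differentiated with dexamethasone, insulin and 3-isobutyl-1-methylxanthine, a treatment that all groups shared. Each of 9 groups held 3 arrays. The control was untreated cells (time 0), and the other groups received 1 µM rosiglitazone for 30 min, 1 h, 2 h, 6 h, 12 h, 24 h, 36 h or 48 h. Rosiglitazone, used against insulin resistance, binds and activates PPARγ, the nuclear receptor at the head of the fat cell programme, and the course asks which genes respond and how fast. The drug was dissolved in DMSO, and 0 of the samples used here are labelled as cells given DMSO alone. With untreated cells as the sole control, effects of time in culture and of handling cannot be told apart from those of the drug.

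Collagens are secreted proteins whose chains wind around each other into a stiff helix, and each type is built from the products of its own gene or genes. Types I, III and V form the banded fibrils of connective tissue, and type XII lies on the surface of those fibrils. Type IV forms the sheet of the basement membrane that surrounds each fat cell, types XV and XVIII are proteoglycans at or next to that sheet, and type VI forms beaded filaments that are abundant around adipocytes.

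Values are log2 intensities, so a negative difference means less signal, and they compare a probe set only with itself. Values ran from 1.67 to 13.19 and array medians from 4.02 to 4.13. The mean of the median gene over all arrays was 4.76. Of the 42 collagen genes, 21 lay above that level and 21 at or below it, where a probe set gives little signal over background. Changes are log2 differences from untreated with their standard error and n = 3 arrays per group. A gene was said to rise or fall when limma gave an adjusted p below 0.05. Whether the replicates of a group were separate cultures is not in the labels. A p-value here weighs a change only against the spread of arrays within groups, pooled by limma over all 9 groups. Part or all of that spread may be technical. The median standard error of a collagen gene's change at 48 h was 0.085, which limits what 3 arrays could show.

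At 48 h, 13 collagen genes had fallen and 2 had risen. The 13 were Col1a1, Col1a2, Col3a1, Col5a1 and Col5a2 of the fibrils, Col12a1 of the fibril surface, Col4a1 and Col4a2 of the basement membrane sheet, Col6a1, Col6a2 and Col6a3 of the beaded filaments, and Col15a1 and Col18a1. Changes among these 13 ran from -0.89 for Col18a1 to -0.23 for Col6a1, and in each of them all 3 arrays at 48 h lay below all 3 untreated arrays. Over all genes, 11.4% had fallen and 12.6% had risen at that time. Whether called or not, 18 of the 42 genes had all 48 h arrays below all untreated arrays, as had 17.0% of all genes, and 3 had them all above, as had 19.1% of all genes. The 2 collagen genes that rose, Col20a1 and Col27a1, changed by 0.36 and 0.25.

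The calls built up over the course. No collagen gene was called by limma at 30 min, when 0.0% of all genes had fallen and 0.0479% had risen, or at 1 h, when 0.516% had fallen and 0.474% had risen. At an unadjusted p below 0.05, 2 collagen genes were lower at 30 min and 1 at 1 h, and 0 were higher. At 2 h, 1 gene had fallen and 1 had risen, where 2.87% of all genes had fallen and 3.04% had risen. At 6 h, 4 had fallen against 8.18% of all genes, a share near that of genes at large. The number that had fallen was 8 at 12 h (9.38% of all genes), 9 at 24 h (10.5%) and 14 at 36 h (10.5%). At 24 h 1 collagen gene had risen, where 10.1% of all genes had. By limma 0 had risen at 6 h, 12 h and 36 h, where 8.39%, 9.48% and 10.9% of all genes had, and at an unadjusted p below 0.05 the counts were 0, 0 and 1. The median change over the 42 genes was -0.065 at 6 h, -0.11 at 12 h and 24 h and -0.13 at 36 h and 48 h, while the median over all genes lay between -0.0080 and 0.013 at those times. The early counts rested on single arrays: at 2 h, 0 genes were lower without any 1 of the 6 arrays compared. At 6 h the count was 0 without the untreated replicate 2 array, 1 without the untreated replicate 3 or the 6 h replicate 3 array, and 2 without the 6 h replicate 2 array. At 12 h it was 3 without the untreated replicate 3 array, 4 without the untreated replicate 2 array and 5 without the 12 h replicate 2 array. These comparisons share the 3 untreated arrays, so the times are not independent of each other.

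**Figure D1:**
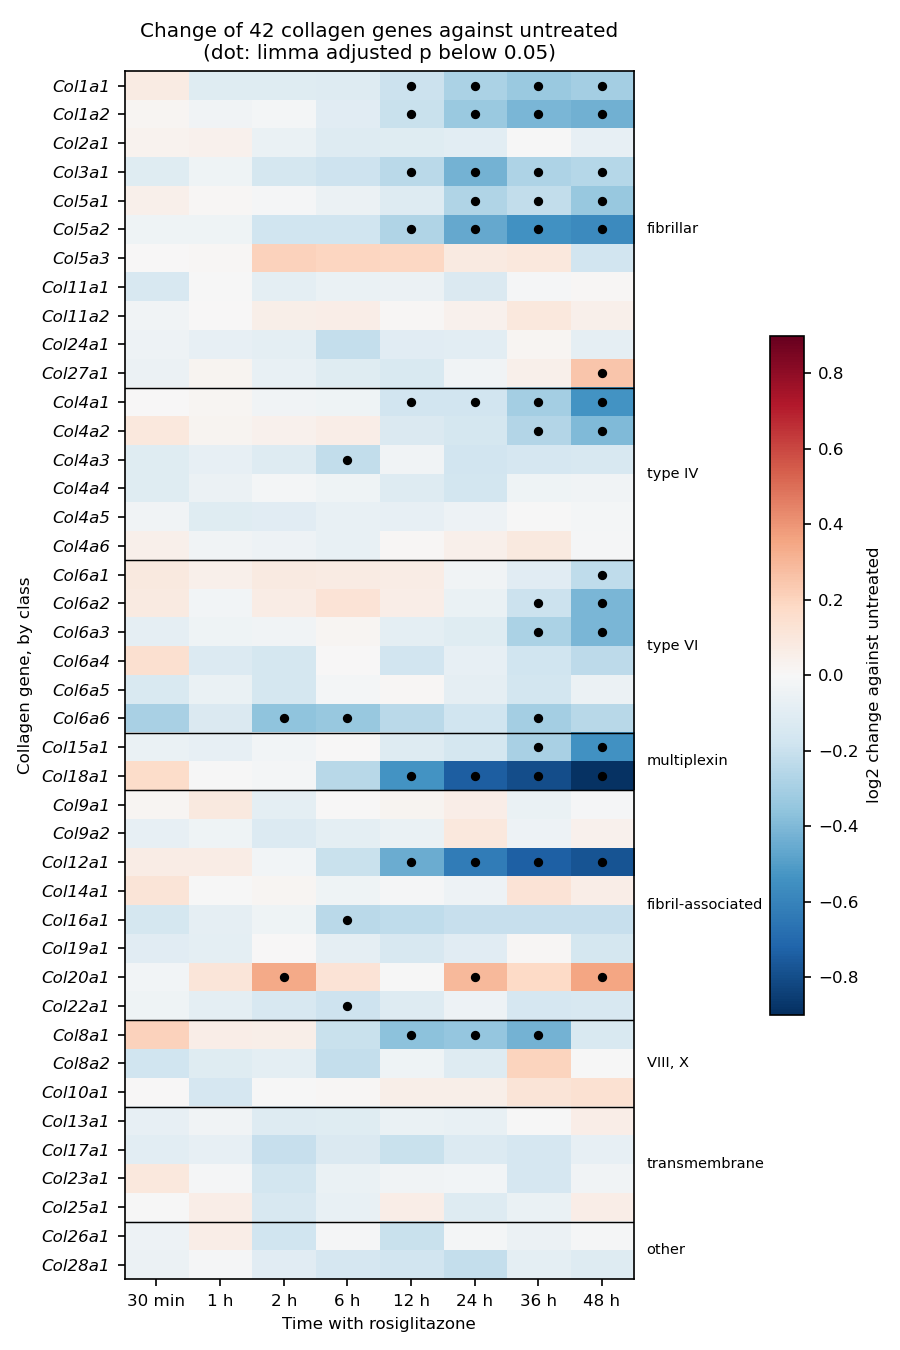
Log2 change of each of the 42 collagen genes (rows, grouped by class) at 8 times with rosiglitazone (columns) against untreated, as a colour from blue (lower) to red (higher), with a dot where the limma adjusted p was below 0.05. Dots are few before 12 h and reach 15 at 48 h, 13 of them on blue cells.

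Over the whole course, the limma F-test found a change in 19 of the 42 genes, and in 40.5% of all genes, so the count was close to that of genes at large. Of the 19, 16 lay above the median gene, and the like share among all genes found by the F-test was not counted. Counted at single times, 20 of the 42 genes were called at some time, where 39.9% of all genes were. The other 22 were never called, and their changes ran from -0.23 to 0.21. A further comparison leaves out the untreated arrays: at 48 h against 2 h, 13 collagen genes were lower and 1 was higher, where 11.5% and 12.2% of all genes were.

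At 48 h the median change was -0.31 over the 21 brighter collagen genes and -0.051 over the 21 dimmer ones. All 15 genes called at 48 h were among the brighter 21. In a fit of the genes above the median alone, 13 of those 21 were lower at 48 h, where 20.1% of such genes were. That share is 1891 of 9390 brighter genes, while the fit of all 18781 genes found 2143 lower. These counts come from fits adjusted over different sets of genes, and how many of the 2143 were brighter genes was not counted. Whether a lean of calls towards brighter genes was particular to collagens was therefore not tested. A change of at least 1.5-fold in addition to the adjusted p left 2 genes lower, Col18a1 and Col12a1, at 24 h, 36 h and 48 h, where 2.29%, 2.62% and 2.61% of all genes passed both limits.

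**Figure D2:**
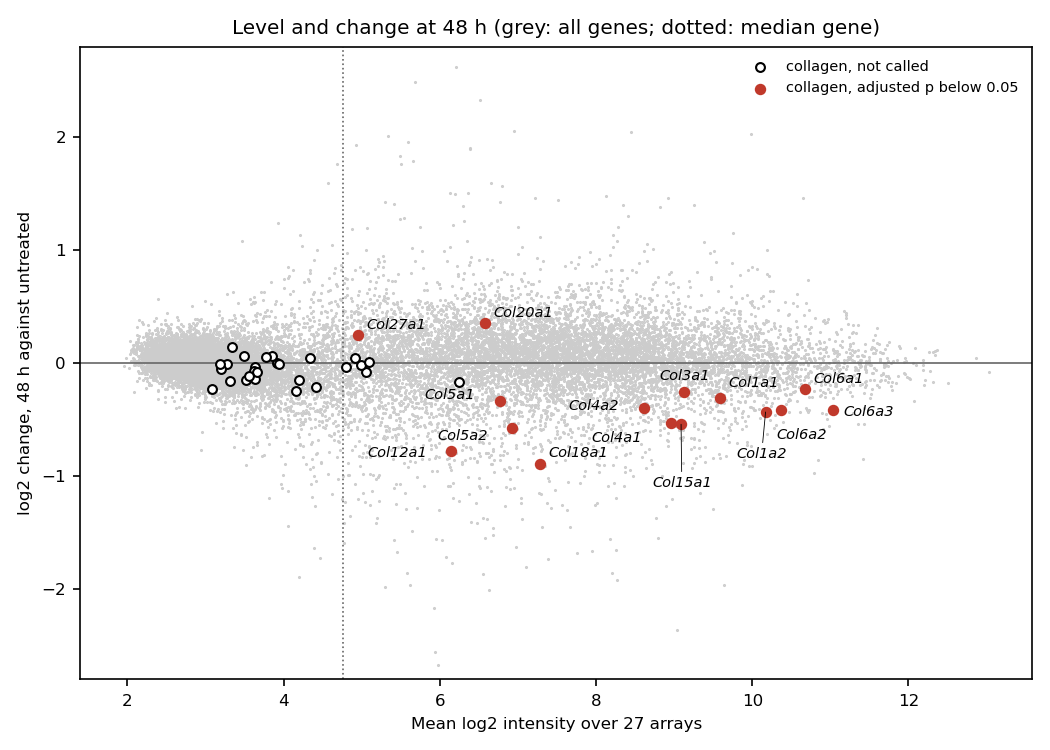
Log2 change at 48 h against untreated (vertical) and mean log2 intensity over the 27 arrays (horizontal) of every measured gene (grey), with collagen genes called at an adjusted p below 0.05 in red and the others as open circles. The 15 called genes lie right of the dotted line at the median gene mean of 4.76, and 13 of them lie below 0.

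Col18a1 changed most among the 42. It encodes the chain of type XVIII collagen, a heparan sulphate proteoglycan of basement membranes whose C-terminal fragment is endostatin. Its values were 7.52, 7.70 and 7.65 in untreated cells, 7.61, 7.36 and 7.17 at 6 h, 7.08, 7.00 and 7.19 at 12 h, 6.88, 6.76 and 7.00 at 24 h, and 6.70, 6.85 and 6.65 at 48 h. At 6 h 1 array still lay within the untreated range, and from 12 h on all arrays lay below it. The change was -0.54 ± 0.10 at 12 h (adjusted p = 0.000466). By 24 h it had become -0.74 ± 0.10 (adjusted p = 5.93e-06). It reached -0.89 ± 0.10 at 48 h (adjusted p = 3.71e-07), and its signal fell by 46.1%. The call at 12 h, 24 h, 36 h and 48 h held without any single array. RefSeq lists more than 1 start for this gene. Around the downstream start (chr10:77113686-77113855) the same length of sequence held no GC box. The stretch from 150 bases before to 20 bases after the upstream start is shown because it holds 3 GC boxes, the motif GGGCGG on either strand, in capitals (GRCm38.p6, chr10:77166511-77166680, minus strand, 5′ to 3′).
Col18a1: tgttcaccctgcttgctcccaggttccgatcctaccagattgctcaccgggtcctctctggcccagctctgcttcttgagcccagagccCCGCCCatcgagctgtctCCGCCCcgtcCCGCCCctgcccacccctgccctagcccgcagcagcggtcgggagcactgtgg

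Col12a1 came next. Type XII collagen belongs to the fibril-associated collagens, which have interrupted helices and attach to the fibril surface. Its values were 6.61, 6.39 and 6.32 in untreated cells, 5.97, 5.99 and 6.00 at 12 h, 5.69, 5.82 and 5.91 at 24 h, and 5.54, 5.66 and 5.79 at 48 h. Every array from 12 h on lay below the lowest untreated array. The change against untreated was -0.45 ± 0.11 at 12 h (adjusted p = 0.00333). By 24 h it was -0.63 ± 0.11 (adjusted p = 7.24e-05), and by 48 h it was -0.78 ± 0.11 (adjusted p = 3.96e-06). Its call at these times, too, held without any single array. Of the other 7 fibril-associated genes, Col20a1 rose at 48 h and 6 were not called then.

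Among the 11 fibrillar genes, 5 fell and 1 rose at 48 h, with a median change of -0.17. Col5a2 encodes a chain of type V, the collagen that starts fibrils and limits their width. It read 7.29, 7.03 and 7.22 in untreated cells, 6.68, 6.86 and 6.62 at 24 h, and 6.65, 6.58 and 6.59 at 48 h. All treated arrays at both times lay below the untreated ones, and the change reached -0.57 ± 0.091 at 48 h (adjusted p = 3.17e-05). Its partner chain gene Col5a1 read 6.75, 6.91 and 6.95, then 6.63, 6.62 and 6.54 at 24 h and 6.59, 6.51 and 6.49 at 48 h, a change of -0.34 ± 0.072 (adjusted p = 0.000916). A second, dimmer probe set of Col5a1 did not follow the first, and with the mean of both the gene was not called at 24 h or 36 h. Col5a3, the remaining chain gene of type V, was not called against untreated at any time.

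Type I, the main fibril collagen, is a helix of chains from Col1a1 and Col1a2. Col1a2 read 10.28, 10.39 and 10.34 in untreated cells, 9.91, 10.05 and 10.06 at 24 h, and 9.86, 9.93 and 9.93 at 48 h. Col1a1 read 9.69, 9.77 and 9.77, then 9.32, 9.51 and 9.54, then 9.46, 9.46 and 9.41. In both genes the groups did not overlap. At 24 h the changes were -0.33 ± 0.060 for Col1a2 (adjusted p = 0.000169) and -0.29 ± 0.062 for Col1a1 (adjusted p = 0.00114), and at 48 h they were -0.43 ± 0.060 (adjusted p = 4.45e-06) and -0.31 ± 0.062 (adjusted p = 0.000528). RefSeq's start region of Col1a2 is shown with its matches to the CCAAT box, read on either strand, in capitals (GRCm38.p6, chr6:4505468-4505637, plus strand, from 150 bases before to 20 after the start).
Col1a2: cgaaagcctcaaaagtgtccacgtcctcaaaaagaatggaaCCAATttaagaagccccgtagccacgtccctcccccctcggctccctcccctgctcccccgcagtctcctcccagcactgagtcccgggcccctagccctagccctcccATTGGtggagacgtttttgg

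Col3a1 encodes type III, which forms fibrils together with type I. It read 9.32, 9.25 and 9.39 in untreated cells, 8.88, 8.93 and 8.85 at 24 h, and 9.20, 9.06 and 8.91 at 48 h. The 24 h arrays lay close together below untreated cells, while the 48 h arrays were spread from 8.91 to 9.20 and also lay below every untreated array, the highest of them just under the lowest untreated value of 9.25. Its fall of -0.43 ± 0.074 at 24 h (adjusted p = 0.000105) compares with -0.26 ± 0.074 at 48 h (adjusted p = 0.0115). The 48 h call rested on single arrays: the change was -0.18 and not called without the 48 h replicate 3 array, and -0.22 and not called without the untreated replicate 3 array. At 48 h against 24 h Col3a1 was not called, so a partial return was not shown.

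**Figure D3:**
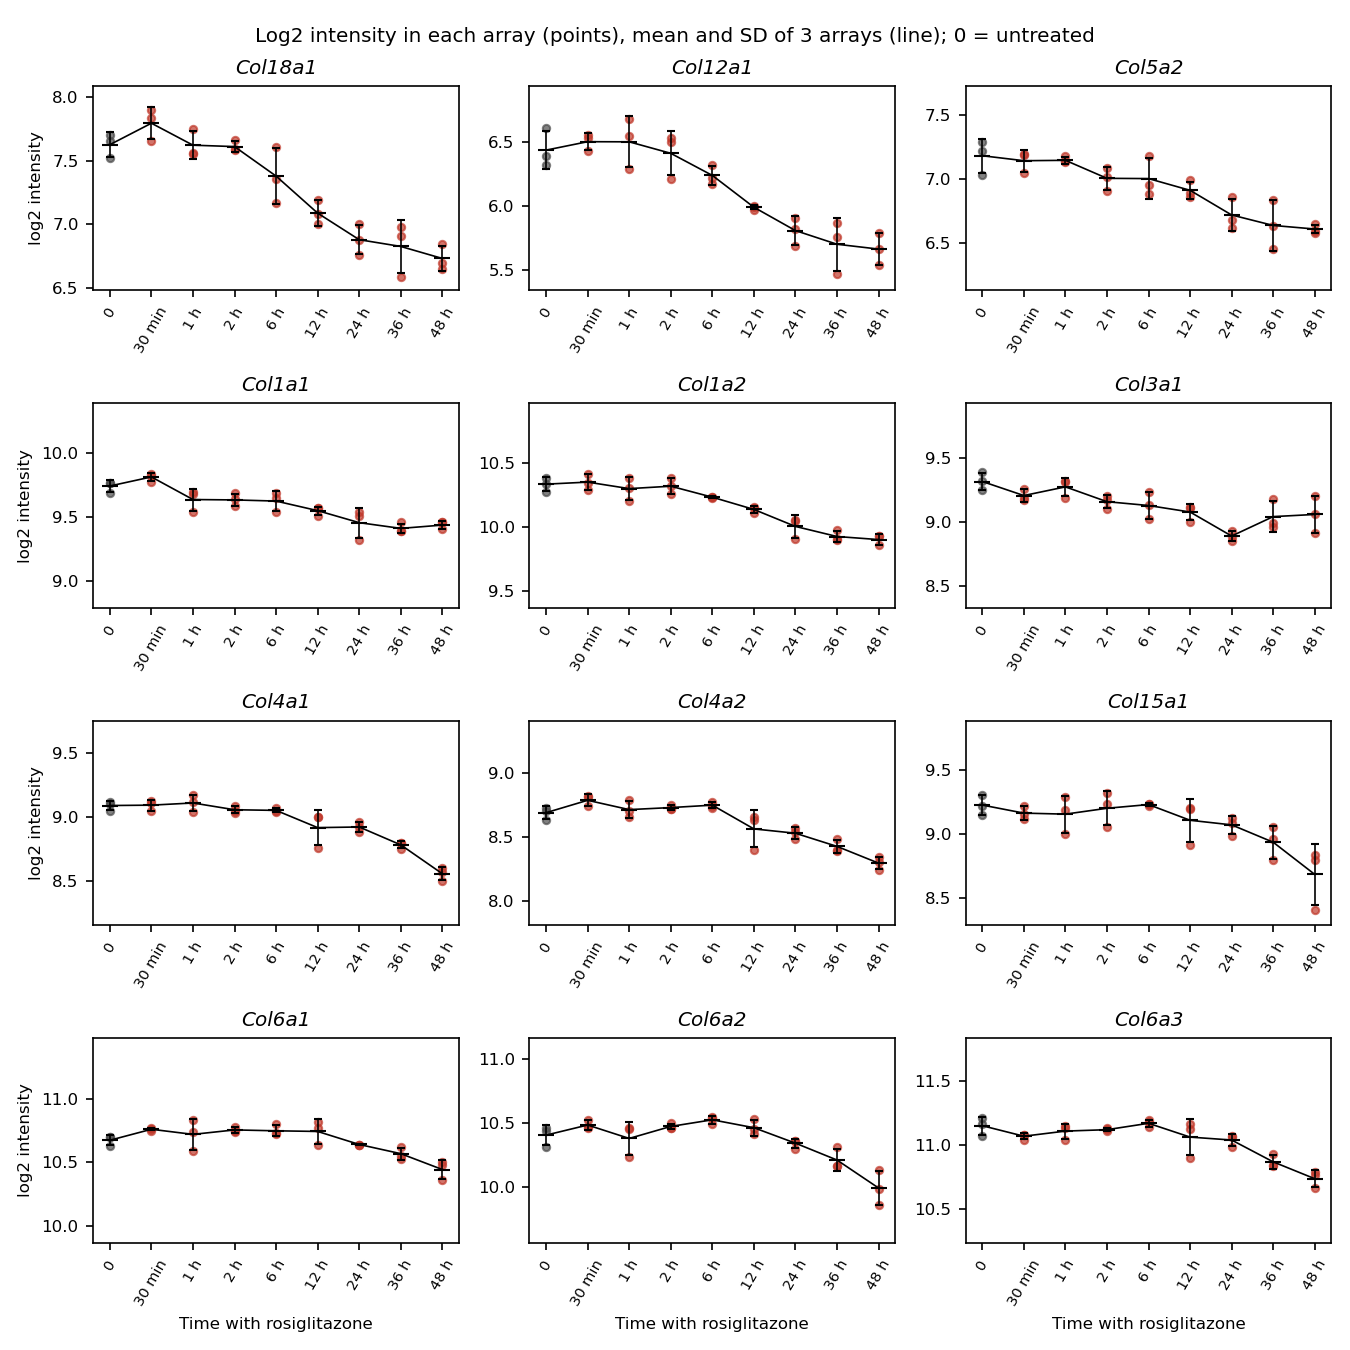
Log2 intensity of 12 collagen genes in each of the 27 arrays (points; grey untreated, red treated) over the 9 groups, with the mean and SD of 3 arrays (line and bars) and an axis of the same height in every panel. Col18a1 runs from 7.52 to 7.70 in untreated cells down to 6.65 to 6.85 at 48 h, while Col6a1 stays within 10.36 to 10.82 from 6 h to 48 h.

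Type IV collagen in most tissues combines chains from Col4a1 and Col4a2. Of the 6 type IV genes these 2 fell at 48 h, and Col4a3, Col4a4, Col4a5 and Col4a6, which encode chains of more specialised basement membranes, were not called at that time. Col4a1 read 9.05, 9.12 and 9.10 in untreated cells, 8.88, 8.96 and 8.92 at 24 h, 8.80, 8.80 and 8.75 at 36 h, and 8.60, 8.57 and 8.50 at 48 h. Col4a2 read 8.63, 8.73 and 8.70, then 8.48, 8.57 and 8.54, then 8.40, 8.48 and 8.39, then 8.34, 8.30 and 8.24. Both genes lay lowest at 48 h, without overlap with untreated cells. The changes at 48 h were -0.53 ± 0.060 for Col4a1 (adjusted p = 2.33e-07) and -0.40 ± 0.063 for Col4a2 (adjusted p = 3.07e-05). At 24 h Col4a1 stood at -0.17 ± 0.060 (adjusted p = 0.0479). That call ended without any 1 of the 6 arrays compared, with changes between -0.19 and -0.15, and at 12 h the same gene's change was -0.17 with all arrays and -0.09, not called, without the 12 h replicate 2 array. Col4a2 was not called before 36 h.

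The genes Col4a1 and Col4a2 stand head to head. In RefSeq's table their starts are 21 bases apart on opposite strands, Col4a2 at 11312805 (plus) and Col4a1 at 11312826 (minus). Each annotated transcript thus begins within the other, and the 22 bases between the starts, ends included, belong to both. They are not a gap between the genes. The windows from 250 bases before to 50 bases after each start share 78 bases. The stretch from 1 start to the other is shown with its GC box, the motif GGGCGG, in capitals (GRCm38.p6, chr8:11312805-11312826, strand of Col4a2, 5′ to 3′).
Col4a1 and Col4a2: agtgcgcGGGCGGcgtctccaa

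Type VI collagen filaments are built mainly from the products of Col6a1, Col6a2 and Col6a3, the last of which also releases the fragment endotrophin. These 3 of the 6 type VI genes fell at 48 h, and the median change of the 6 was -0.24. Col6a3 read 11.07, 11.16 and 11.21 in untreated cells, 11.07, 11.06 and 10.98 at 24 h, and 10.79, 10.76 and 10.66 at 48 h. Col6a2 read 10.31, 10.44 and 10.46, then 10.36, 10.30 and 10.36, then 10.13, 9.98 and 9.86. Col6a1 read 10.63, 10.70 and 10.70, then 10.64 in each 24 h array, then 10.50, 10.48 and 10.36. At 24 h the arrays of all 3 genes overlapped with or touched the untreated ones, and at 48 h none did. The changes at 48 h were -0.41 ± 0.063 for Col6a3 (adjusted p = 1.70e-05), -0.41 ± 0.070 for Col6a2 (adjusted p = 7.22e-05) and -0.23 ± 0.062 for Col6a1 (adjusted p = 0.00751). Without the 48 h replicate 3 array, the lowest of its group in all 3 genes, Col6a1 changed by -0.18 and was not called, while Col6a2 at -0.35 and Col6a3 at -0.38 were.

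Col15a1 encodes type XV, the relative of type XVIII that lies at the outer face of basement membranes. It read 9.15, 9.22 and 9.31 in untreated cells, 9.13, 9.09 and 8.99 at 24 h, 9.06, 8.96 and 8.80 at 36 h, and 8.84, 8.80 and 8.41 at 48 h. The 48 h replicate 3 array stood lowest, but the other 2 also lay below every untreated array. Against untreated, Col15a1 stood at -0.29 ± 0.10 at 36 h (adjusted p = 0.0404). By 48 h the difference was -0.54 ± 0.10 (adjusted p = 0.000217). It was -0.41 and still called at 48 h without that lowest array. The 36 h call ended without the untreated replicate 2 (-0.29) or 3 (-0.25) array, or without the 36 h replicate 2 (-0.30) or 3 (-0.22) array. The stretch from 150 bases before to 20 after the start of Col15a1 holds no match to the 6 motifs described further on. The same holds for that stretch at the downstream start of Col18a1. The wider windows counted further on are not covered by this. The stretch of Col15a1 is shown here (GRCm38.p6, chr4:47207862-47208031, plus strand).
Col15a1: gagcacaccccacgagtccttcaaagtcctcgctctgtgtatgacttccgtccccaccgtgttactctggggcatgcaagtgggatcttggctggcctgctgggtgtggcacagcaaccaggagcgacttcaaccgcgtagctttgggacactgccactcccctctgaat

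The timing of these falls was tested between treated groups. From 6 h to 24 h, 7 collagen genes fell, where 6.02% of all genes did: Col18a1 by 0.50, Col12a1 by 0.43, Col5a2 by 0.28, Col3a1 by 0.24, Col1a2 by 0.23, and Col5a1 and Col4a2 by 0.22 each. From 24 h to 48 h, 3 fell, where 0.745% of all genes did. These were Col4a1 (-0.37, adjusted p = 0.00181), Col6a2 (-0.35, adjusted p = 0.00991) and Col6a3 (-0.30, adjusted p = 0.0126). Both comparisons use the 24 h arrays, with opposite sign, so the 7 and the 3 are not independent sets. Expressed as a share of the 48 h change, the change already present at 24 h was 93.8% for Col1a1, 83.6% for Col18a1, 81.3% for Col12a1, 80.8% for Col5a2 and 76.4% for Col1a2. It was 40.9% for Col4a2, 31.6% for Col4a1, 28.6% for Col15a1, 27.1% for Col6a3 and 14.3% for Col6a1. For Col3a1 it was 166%, since its lowest level came at 24 h. Whether these shares differ between genes was not tested. Between neighbouring times, from 30 min on, limma called no collagen gene in any of the 7 steps. The share of all genes called in either direction was 0.623% from 30 min to 1 h, 1.88% to 2 h, 9.16% to 6 h, 1.17% to 12 h, 2.93% to 24 h, 0.154% to 36 h and 0.016% to 48 h. At an unadjusted p below 0.05, between 2 and 8 collagen genes were lower and between 0 and 3 higher in a step.

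Single arrays decided part of these calls. The 7 from 6 h to 24 h became 1 without the 24 h replicate 1 array and 4 without the 24 h replicate 3, 6 h replicate 2 or 6 h replicate 3 array. The 3 from 24 h to 48 h became 1 without the 24 h replicate 1 or the 48 h replicate 3 array. From 6 h to 24 h, Col18a1 remained called without any single array. Col12a1 (-0.37) and Col1a2 (-0.18) were not called without the 24 h replicate 1 array. Col4a2 was not called without the 6 h replicate 1 (-0.22) or 2 (-0.21) array or the 24 h replicate 1 array (-0.20). Col5a2 was not called without the 6 h replicate 2 (-0.31) or 3 (-0.19) array, or the 24 h replicate 1 (-0.26) or 3 (-0.23) array. Col3a1 and Col5a1 stayed called in 1 of the 6 single-array models each, with changes from -0.29 to -0.19 and from -0.27 to -0.16. From 24 h to 48 h, Col4a1 held in all 6 models. Col6a2 was not called without the 24 h replicate 1 (-0.34) or the 48 h replicate 3 (-0.29) array, nor was Col6a3 without either of these (-0.29 and -0.27) or without the 24 h replicate 2 array (-0.29).

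**Figure D4:**
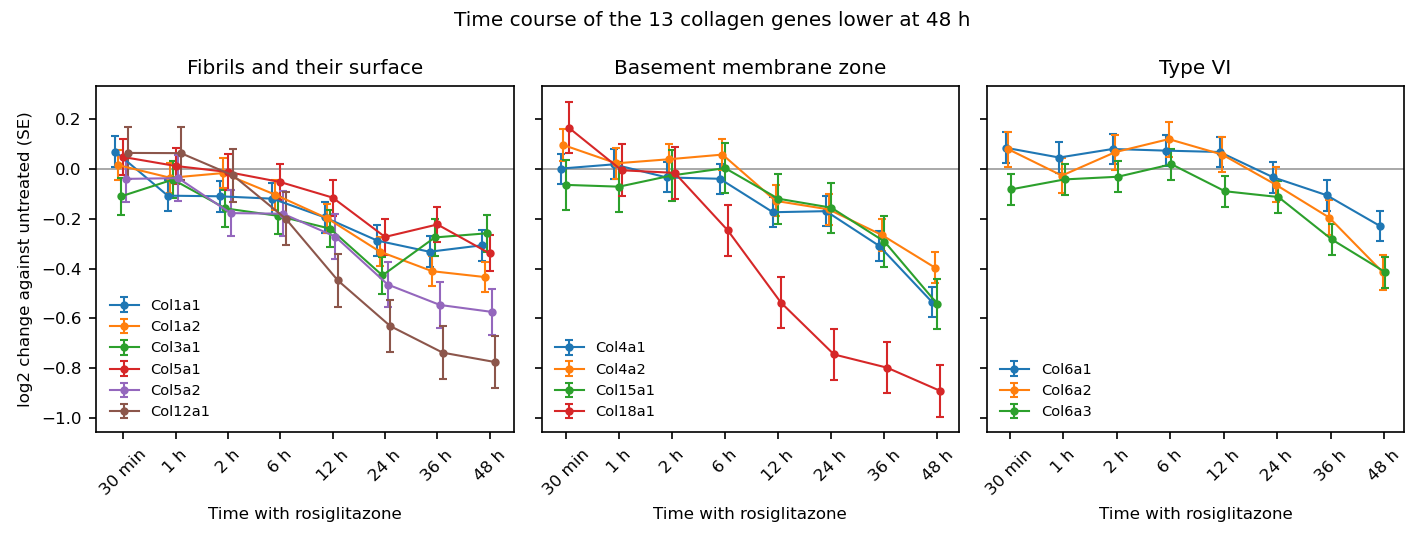
Log2 change against untreated (SE bars) over 8 times with rosiglitazone for the 13 collagen genes that were lower at 48 h, in panels for fibrils and their surface, the basement membrane zone and type VI. Col18a1 and Col12a1 fall from 6 h to 24 h, to -0.74 and -0.63, while Col6a1, Col6a2 and Col6a3 lie near 0 until 24 h.

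The remaining collagen genes, chosen for mention after their values were seen, made a less regular picture. Col20a1, a fibril-associated collagen, read 6.41, 6.36 and 6.50 in untreated cells, 6.81, 6.67 and 6.81 at 2 h, 6.74, 6.74 and 6.66 at 24 h, and 6.56, 6.98 and 6.79 at 48 h. Its arrays lay above the untreated ones at these 3 times, but at 12 h they read 6.67, 6.18 and 6.41 and overlapped. It rose by 0.34 at 2 h, 0.29 at 24 h and 0.36 at 48 h, with adjusted p = 0.0427, 0.0383 and 0.00997. At 2 h no single-array model kept the call (0.31 to 0.39), at 24 h 1 of 6 did (0.26 to 0.33), and at 48 h the call ended without the 48 h replicate 2 array (0.25). A second probe set of Col20a1, with a mean of 6.30 against 6.57, was not used in the main fit. Over all alternative fits, listed further on, the limma adjusted p of Col20a1 reached 0.483 at 2 h, 0.177 at 24 h and 0.212 at 48 h.

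Col27a1, a fibrillar collagen of cartilage, read 4.96, 4.93 and 4.99 in untreated cells and 5.22, 5.16 and 5.24 at 48 h, close to the median gene. The groups did not overlap, and it rose by 0.25 ± 0.089 (adjusted p = 0.0433), a call that ended in all 6 single-array models, with changes from 0.23 to 0.27. Col8a1, of the network-forming type VIII, is a dim probe set that read 3.81, 3.81 and 3.65 in untreated cells, 3.24, 3.45 and 3.49 at 12 h, 3.13, 3.56 and 3.32 at 36 h, and 3.67, 3.52 and 3.68 at 48 h. It fell by 0.37 at 12 h, 0.35 at 24 h and 0.42 at 36 h, with adjusted p = 0.0137, 0.0169 and 0.00400, and overlapped with untreated cells again at 48 h. Its calls at 12 h and 24 h held in 3 of 6 single-array models each (changes from -0.42 to -0.29 and from -0.40 to -0.32), and its call at 36 h in all 6.

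Apart from the rise of Col20a1 at 2 h, the collagen genes called at 2 h and 6 h were dim ones, at or below the median gene. Col6a6 changed by -0.36 at 2 h, -0.34 at 6 h and -0.31 at 36 h, with adjusted p = 0.0496, 0.0314 and 0.0465. It had a second, dimmer probe set, and with the mean of both it was not called at 2 h. Over all alternative fits, listed further on, the limma adjusted p of Col6a6 reached 0.825, 0.828 and 0.947 at 2 h, 6 h and 36 h. Its untreated arrays read 4.40, 4.40 and 4.39, a spread far smaller than in any treated group, and the single-array models kept 0, 1 and 1 of 6 calls, with changes from -0.41 to -0.26, from -0.38 to -0.31 and from -0.39 to -0.25. At 6 h, Col16a1 (-0.24, adjusted p = 0.0424), Col4a3 (-0.22, adjusted p = 0.0171) and Col22a1 (-0.19, adjusted p = 0.0355) also fell. They held in 2, 3 and 2 of 6 such models, with changes from -0.33 to -0.19, from -0.28 to -0.18 and from -0.23 to -0.14. The 4 transmembrane collagen genes and the 2 of types XXVI and XXVIII were not called at any time.

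RefSeq's promoter table held windows of 250 bases before to 50 bases after the start for 34 of the 42 genes, 37 windows in all, on GRCm38.p6. Each window was searched on both strands for 6 motifs. The GC box GGGCGG was in 59.5% of the collagen windows and 35.7% of the 32851 windows of all genes. By gene, it was in 21 of the 34 collagen genes. Of the 13 genes lower at 48 h, 10 had a window, and the GC box was in 6 of those 10. The CCAAT box was in 32.4% and 37.4% of these windows and in 4 of those 10 genes, and TATAAA in 13.5% and 13.6% and in 1 of the 10. CAGACA, which SMAD proteins of the TGF-β pathway bind, was in 21.6% and 21% and in 4 of the 10. The core element of nuclear receptors, AGGTCA, was in 18.9% and 16.3%, and in 0 of those 10 genes. DR1, the direct repeat of that element with a single base between the copies, to which PPARγ binds together with RXR, was in 0 collagen windows and in 0.0396% of all windows. Of the 34 collagen genes, the CCAAT box was in 12, TATAAA in 5, CAGACA in 8 and AGGTCA in 7. Whether the genes lower at 48 h differ in motifs from the other collagen genes was not tested. A match describes the letters of a window and is not a binding site.

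Genes that make, export, crosslink, sense and degrade collagen were described beside the collagens themselves, together with genes of TGF-β signalling and its targets. They came to 69 measured genes in 7 lists, with 12 of the 69 in the TGF-β list. Of these, 28 fell and 3 rose at 48 h, 26 fell and 5 rose at 24 h, and 16 fell and 1 rose at 6 h. Of the 18781 genes, 11.4% were lower and 12.6% higher at 48 h, 10.5% and 10.1% at 24 h, and 8.18% and 8.39% at 6 h, the shares to read beside the count of each list. The median change of the 69 genes at 48 h was -0.16, and that of all genes 0.013. Among 8 genes of folding and export, 4 fell at 48 h, led by Serpinh1, the collagen chaperone HSP47 (-0.59 ± 0.069, adjusted p = 4.44e-07), and Fkbp14, a prolyl isomerase of the endoplasmic reticulum (-0.38 ± 0.085, adjusted p = 0.00137). Among 14 genes that hydroxylate or glycosylate the chains, 7 fell and 1 rose. The prolyl 3-hydroxylase genes P3h3 and P3h2 fell by 0.85 and 0.84 (adjusted p = 2.03e-08 and 1.38e-06). The gene that rose was P4ha2, a catalytic subunit of prolyl 4-hydroxylase (0.58 ± 0.10, adjusted p = 0.000141), named after its value was seen.

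Of 9 genes of propeptide removal, 3 fell, among them Pcolce, an enhancer of that cleavage (-0.63 ± 0.073, adjusted p = 4.06e-07), and its relative Pcolce2 (-2.17 ± 0.12, adjusted p = 1.96e-12). Of 5 crosslinking genes, 2 fell and 1 rose. Loxl1, a lysyl oxidase that joins the chains, went from 8.14 ± 0.12 to 7.18 ± 0.076 (SD, n = 3; change -0.96, adjusted p = 4.63e-09). Tgm2, a transglutaminase, rose from 6.23 ± 0.16 to 6.80 ± 0.24 (SD, n = 3; change 0.57, adjusted p = 0.00163).

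Of 10 receptor and uptake genes, 4 fell and 1 rose, and the largest falls were those of the collagen receptor kinases Ddr1 (-0.90 ± 0.090, adjusted p = 3.01e-08) and Ddr2 (-0.60 ± 0.069, adjusted p = 2.70e-07). Of 11 degradation genes, 4 fell, including the protease gene Mmp14 (-0.66 ± 0.060, adjusted p = 7.44e-09) and the protease inhibitor gene Timp2 (-0.90 ± 0.088, adjusted p = 2.09e-08). Of 12 genes of TGF-β signalling, a pathway that induces fibrillar collagens in many cells, 4 fell, among them the ligand genes Tgfb2 (-0.73 ± 0.086, adjusted p = 4.59e-07) and Tgfb3 (-0.37 ± 0.099, adjusted p = 0.00697). Tgfb2 had first risen, by 0.36 ± 0.086 at 12 h (adjusted p = 0.00370), and was lower from 24 h on (-0.31, adjusted p = 0.00997). Genes of opposite function, such as the protease gene Mmp14 and the inhibitor gene Timp2, fell at the same time, and no list as a whole was tested.

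Markers of the cell types such a culture can hold were read on the same arrays. All 12 adipocyte markers lay above the median gene. The mean of their log2 values was 11.31 to 11.36 in untreated arrays and 11.21 to 11.33 at 48 h. In the limma fit 1 of them was higher at 48 h, Cd36 (0.43, adjusted p = 0.00026), named after its value was seen. Lower at 48 h were 3, led by Dgat2 (-0.54, adjusted p = 3.83e-07) and Pparg (-0.30, adjusted p = 5.55e-05). Before that, 5 were higher and 1 lower at 6 h, 3 and 2 at 12 h, 5 and 3 at 24 h, and 3 and 2 at 36 h. Pparg, the gene of the drug's receptor, was already lower at 2 h (-0.63, adjusted p = 4.41e-09). Of 13 preadipocyte and fibroblast markers, 7 were lower at 48 h and their mean went from 7.20 to 7.27 down to 6.87 to 6.88. S100a4 (-1.38, adjusted p = 1.45e-09) and Dlk1, a marker lost as preadipocytes mature (-0.73, adjusted p = 3.12e-08), led that list. Not called in it were Twist1 (0.18), Thy1 (-0.17), Dpp4 (-0.15), Gata2 (-0.12), Pi16 (0.035) and Cd34 (-0.0041). Of 6 myofibroblast markers, 3 were lower at 48 h, and the mean went from 6.61 to 6.62 down to 5.69 to 5.86. It lay at 6.28 to 6.29 at 6 h and 5.61 to 5.86 at 24 h. At 48 h Acta2, smooth muscle actin, was at -2.37 and Myl9, a myosin light chain, at -1.57. Both were already called at 6 h, at -0.64 and -0.82, when the collagen genes lower at 48 h were not yet called. Not called at 48 h were Postn (-0.21), Tpm2 (0.15) and Cnn1 (0.080).

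All 7 proliferation markers were lower at 48 h. Their mean was 6.09 to 6.12 in untreated arrays, 5.63 to 5.79 at 24 h and 4.74 to 4.95 at 48 h, with Mki67 at -1.99 and Top2a at -1.68. Macrophage markers had 1 of 7 genes above the median gene and a mean of 3.21 to 3.34 in untreated arrays and 3.34 to 3.35 at 48 h, and none of the 6 endothelial markers lay above it. All proliferation markers and part of the fibroblast and myofibroblast markers were thus lower at 48 h. Whether they followed the same course as the collagen genes, and their part in the collagen changes, was not tested. In RNA from whole cultures, fewer cells of a type and less RNA per cell cannot be told apart.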

How the data were processed

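Each of 27 RNA samples was hybridised to an Affymetrix Mouse Gene 1.1 ST array. The authors deposited a table of log2 intensities per probe set. Partek and RMA, which corrects background, normalises and summarises probes, are named in the submitters' processing notes, with no version and no role for either. Intensities were used as deposited, with no filter on dim genes. Of 28815 probe sets, 21153 carried 1 gene symbol in the supplied annotation, 1867 several and 5795 none. Looked up by Entrez identifier, 21123 of the 21153 were found in the reference gene table, and their symbols were current. The brightest probe set stood for each of 1367 genes with several, giving 18781 genes. No array pair was identical. The build used to annotate the array is not given in the sources used here, and gene coordinates are not printed. The number of arrays limits the precision.

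Group means were fitted to all 27 arrays with limma 3.58.1 (lmFit and eBayes) in R 4.3.3, without covariates. P-values, two-sided, were adjusted over 18781 genes by Benjamini-Hochberg, and an adjusted p below 0.05 was a call. The F-test covered the 8 differences from untreated. The fit was tested on simulated data. Tables and plots used Python 3.11.15, pandas 2.3.3, numpy 2.4.6 and matplotlib 3.10.9. Promoter sequences are RefSeq's on GRCm38.p6. The collagen genes, their classes and the other gene lists were chosen with earlier results of these data known, so no list was tested as a set. Named with values in the arrays were genes called with a change of at least 1.5-fold and a panel of main collagen genes. From each other list, except the macrophage and endothelial markers, the 2 genes with the smallest p at 48 h were named. Fibroblast and myofibroblast markers not called at 48 h were named as well. A gene named otherwise is marked as chosen after its values were seen. The replicate numbers of the labels did not pair the arrays: of 108 same-numbered pairs in different groups, 3 had within-group deviations that correlated above 0.1 (median -0.126), so no block entered the fit. Pairs with different numbers had a median of 0.0508, and 0 arrays were closest to arrays of their own number. Same-numbered arrays thus leaned apart, and the reason was not tested.

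Alternatives were a replicate block, brighter genes alone, averaged probe sets, centring on the array median, a second quantile normalization, array weights, a robust and trended variance, a 1.5-fold minimum, only the 6 arrays compared, the 30 min arrays as baseline, and models without a replicate number or a single array.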

Additional observations from a re-analysis of the deposited data

Results flagged for a closer look

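Treated groups of the same course differed from each other in the limma fit, with an adjusted p below 0.05, for the following collagen genes. At 24 h against 6 h the differences were -0.50 for Col18a1, -0.43 for Col12a1, -0.28 for Col5a2, -0.24 for Col3a1, -0.23 for Col1a2, -0.22 for Col5a1 and -0.22 for Col4a2. At 48 h against 24 h they were -0.37 for Col4a1, -0.35 for Col6a2 and -0.30 for Col6a3.

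At 48 h against 2 h, 13 collagen genes were lower and 1 was higher, where 11.5% of all genes were lower and 12.2% higher. This comparison does not use the untreated arrays. The differences were -0.88 for Col18a1, -0.75 for Col12a1, -0.52 for Col15a1, -0.50 for Col4a1, -0.48 for Col6a2, -0.44 for Col4a2, -0.42 for Col1a2 and -0.40 for Col5a2. They were -0.38 for Col6a3, -0.38 for Col5a3, -0.33 for Col5a1, -0.31 for Col6a1 and -0.20 for Col1a1. Col27a1 was higher by 0.32. Col5a3, a type V chain gene that was not called against untreated, read 6.26, 6.37 and 6.52 at 2 h and 6.23, 6.01 and 5.78 at 48 h. Its 48 h arrays lay below all 2 h arrays, while 6.23 lay within the untreated range of 6.04 to 6.24. Col3a1, lower at 48 h against untreated, was not called against 2 h. Without the 2 h replicate 1 or 3 or the 48 h replicate 3 array, Col1a1 was not called (-0.17, -0.20 and -0.18), nor was Col27a1 without the 2 h replicate 3 array (0.25). Groups of 3 arrays are too small for a test of single outlying arrays.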

How the results depend on the processing

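The count of 13 collagen genes lower at 48 h was 10 to 15 in models without a replicate number or a single array. A 1.5-fold minimum made it 2, as it did for the 9 at 24 h and the 14 at 36 h, and left 0 lower at 2 h, 6 h and 12 h, 0 higher at 48 h, and 0 lower at 24 h against 6 h and at 48 h against 24 h. The numbers did not pair the arrays, and a replicate block changed the lower counts to 0 at 2 h and 2 at 6 h, to 5 at 12 h and to 4 at 24 h against 6 h, and the higher count at 48 h to 1. Centring each array gave 0 lower at 2 h and at 6 h, 3 lower at 12 h and 9 lower at 36 h. It changed the split of lower against higher genes from 14 and 0 to 9 and 3 at 36 h, and from 13 and 2 to 11 and 3 at 48 h, where Col3a1 and Col6a1 were no longer called. Quantile normalization gave 0 at 2 h and 1 at 6 h. The brighter genes alone gave 0 at 2 h, 1 at 6 h and 5 at 48 h against 24 h. Averaged probe sets and the 30 min baseline gave 0 at 2 h. A trended and robust variance gave 0 at 2 h, 2 at 6 h, 6 at 48 h against 24 h and 1 higher at 48 h. Array weights gave 2 at 2 h, 5 at 48 h against 24 h and 1 higher at 48 h. Only the 6 arrays compared gave 1 at 6 h, 5 at 12 h, 2 at 24 h against 6 h and 0 at 48 h against 24 h. Without a replicate number or a single array, the count of lower genes was 0 in each model at 2 h and ran from 0 to 4 at 6 h, then 2 to 6 at 12 h, then 6 to 9 at 24 h, then 7 to 15 at 36 h. It ran from 1 to 5 at 24 h against 6 h and 0 to 4 at 48 h against 24 h. The higher count at 48 h ran from 0 to 1 and the F-test count from 11 to 21. One value reversed: with the mean of its probe sets, Col5a1 at 24 h against 6 h was 0.064 (adjusted p = 0.719; 0.0204 to 0.719 over its alternatives). The cause of these shifts was not tested. Models without a replicate number leave 2 arrays per group and test with less precision. Signal over background limits the 21 dimmer genes, for which small changes may not be detectable.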
